A study of Mus musculus with 6 samples.

Results

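Collagen chains are the proteins encoded by the genes whose symbols read Col, a number, a and a number. They were taken here from the array's gene annotation by that symbol pattern, leaving out Col17a1. The annotation held 41 such genes, read by 81 probe sets that name 1 gene alone, among 18193 genes and 45037 probe sets in all. The study profiled cells of mouse bladder epithelium at postnatal day 7 on 3 arrays of DsRed-positive cells and 3 of DsRed-negative cells, numbered 1, 2 and 5 in both groups. The epithelial layer was loosened with trypsin and digested to single cells with Blendzymes. The labels call both groups bladder epithelial cells. Yet the deposited signals of 11 fibroblast markers other than collagens summed to 264923, 341218 and 366111 on DsRed-negative arrays 1, 2 and 5. On DsRed-positive arrays 1, 2 and 5 they summed to 2719, 2412 and 4658. The marker Vim made up most of the sum on each DsRed-negative array. All samples carry the label B6;129P-Upk1btm1Zhang/J as the reported gene, the strain label FVB/N x C57BL/6 and the sex label male. The labels name no treatment, state that samples were not pooled, and do not say which promoter drives DsRed or how the cells were parted. Whether each array stands for its own animal is not stated. The p-values therefore reflect sample-to-sample spread, which may be technical, and the small number of arrays limits the precision.

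Collagens are triple-helical proteins of the extracellular matrix, in which every chain repeats a motif that starts with glycine. In the bladder wall, fibrillar collagens give the stroma its tensile strength, a network of type IV collagen underlies the urothelium and surrounds muscle and vessels, and other classes bind fibrils, anchor the epithelium or sit in cell membranes. Fibrillar chains are known mainly as products of fibroblasts, while basement membrane chains can be made by epithelium and by stroma.

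Upk1b, the uroplakin named in the labels, had normalized log2 signals of 16.48, 16.70 and 16.67 in DsRed-positive arrays 1, 2 and 5, against 13.27, 12.25 and 11.53 in the DsRed-negative arrays of those numbers, so the groups did not overlap. Both arrays numbered 1 went against the label male. Xist, the RNA that silences an X chromosome in females, was at 15.08 in DsRed-positive 1 and 15.48 in DsRed-negative 1, and at 8.08 to 8.89 in the other 4 arrays. The Y-linked gene Eif2s3y was at 6.32 and 5.44 in the same pair and at 11.78 to 12.93 in the others. Counts are therefore also given without both arrays numbered 1. Signals are on a log2 scale after an offset was added and the arrays were quantile normalized, which compresses ratios of dim probe sets. The control level of an array, 7.41 to 8.03 on that scale, is the 95th percentile of 27 control probe sets (dap, lys, phe, thr and trpn) for bacterial transcripts other than the hybridization spikes. That no RNA of these transcripts was added is not stated in the labels, so this level, and each fold given as at least N-fold against it, rests on that assumption.

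Collagen genes were lower in DsRed-positive cells across most classes. Of 41 genes, 24 fell, none rose, 11 did not pass and 6 lay below the filter on dim probe sets (limma with Benjamini-Hochberg adjustment over all probe sets, threshold 0.05). Of all 14222 genes tested, 11.3% were called lower and 9.21% higher. These are 1310 higher and 1603 lower genes, a split that became 2568 higher and 1400 lower when arrays were centred on their medians instead of quantile normalized. The filter keeps genes that are bright in either group, so the members that passed it are not the whole family. With no filter the count was again 24 of 41, where 8.26% of 18193 genes were called lower, and the median log2 change was -2.47 over the 41 genes and -0.01 over all genes. With the 6 collagen genes that have a bound alone held at it, the median of the 41 was -2.01. At an unadjusted p under 0.05, 28 collagen genes were lower and 1, Col18a1, was higher. Of all 14222 tested genes, 5000 were under that unadjusted threshold in either direction. Without both arrays numbered 1, 19 were lower. Without those numbered 5, 18 were lower and without those numbered 2, 25 were lower. In bulk samples such as these, fewer cells of a type and less RNA per cell cannot be told apart.

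The sizes were large. Among the 24 genes that fell, 17 had a log2 change below -4, the smallest of them 18.1-fold (16 with bounded genes at their bound), and 439 of all 14222 tested genes had a change below -4. Every DsRed-positive array lay below every DsRed-negative array for 27 of the 35 tested genes and above for 1, against 21.4% and 22.0% of all tested genes, and 7 overlapped. In the DsRed-positive arrays 16 of the 24 were still above the control level in each array, and 2, Col2a1 and Col24a1, were at or below it in each. The rest, Col5a3, Col11a1, Col12a1, Col15a1, Col23a1 and Col27a1, were at or below it in at least 1, which limits their folds.

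**Figure D1:**
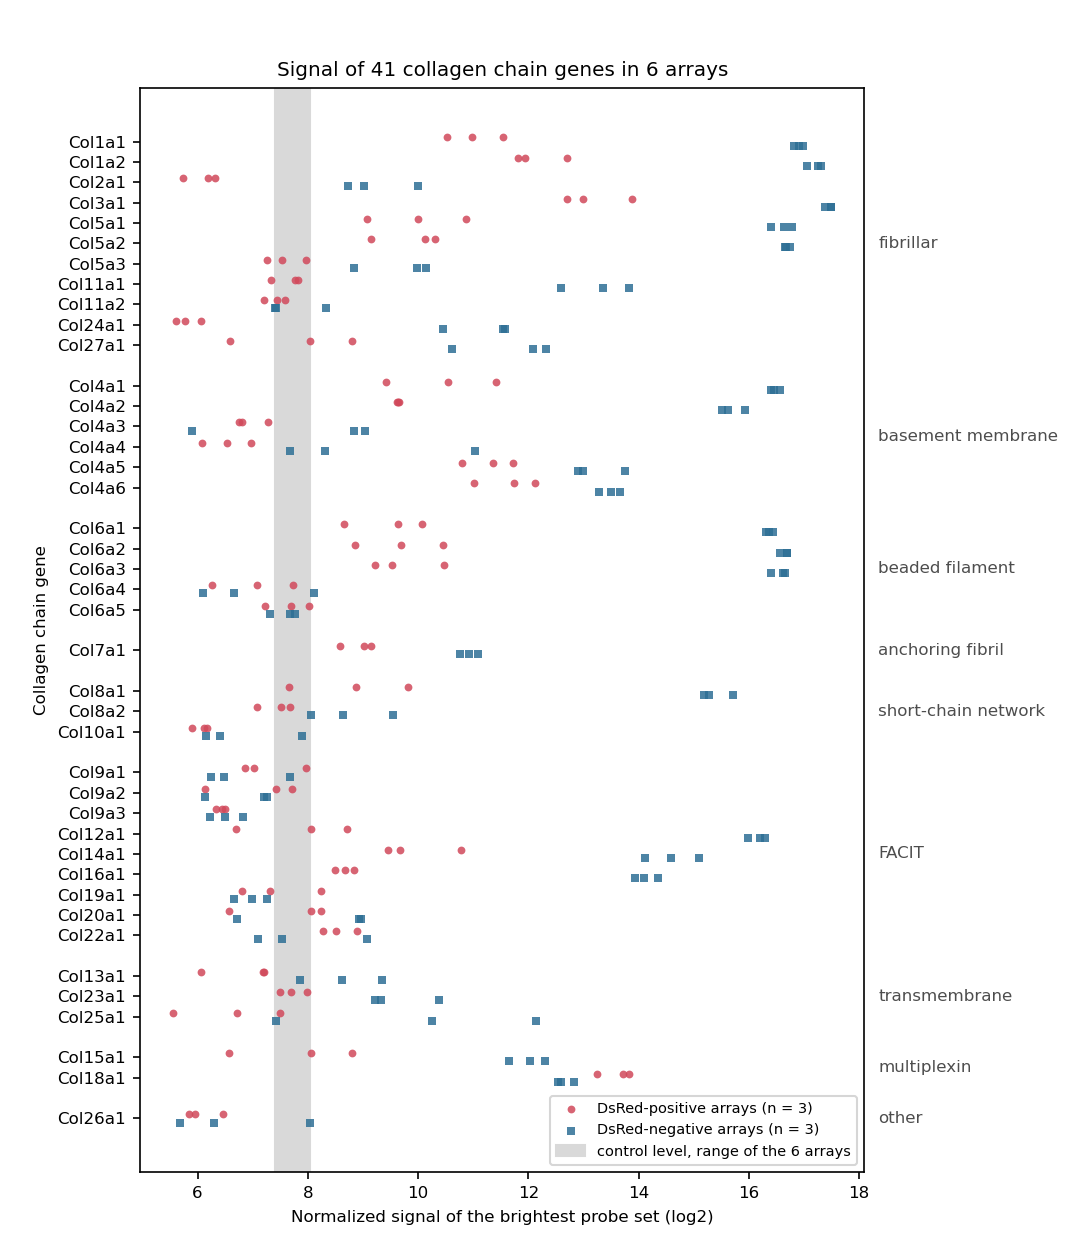
Normalized log2 signal (horizontal axis) of the brightest probe set of each of 41 collagen genes (vertical axis, grouped by class) in 3 DsRed-positive and 3 DsRed-negative arrays, one point per array, with the range of the control level, 7.41 to 8.03, as a band. The DsRed-positive points of 27 genes lie left of their DsRed-negative points, and those of Col18a1 lie to the right.

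Promoters are shown for chains on which the comparison of classes turns. These are a fibrillar chain, the type IV head-to-head pairs Col4a1-Col4a2 and Col4a5-Col4a6, whose changes differ in size, and Col18a1. The values of Col18a1 did not overlap but did not pass. Each is the 250 bases before the annotated start, read 5′ to 3′ on the gene's own strand, from RefSeq on build GRCm38.p6. Capitals mark the motif TATAAA, known as the TATA box, the motif CCAAT, bound by NF-Y, and the motif GGGCGG, known as the GC box, on either strand. The table held such windows for 32 of the 41 genes, 35 windows in all.
Col1a2 (plus strand), chr6:4505368-4505617: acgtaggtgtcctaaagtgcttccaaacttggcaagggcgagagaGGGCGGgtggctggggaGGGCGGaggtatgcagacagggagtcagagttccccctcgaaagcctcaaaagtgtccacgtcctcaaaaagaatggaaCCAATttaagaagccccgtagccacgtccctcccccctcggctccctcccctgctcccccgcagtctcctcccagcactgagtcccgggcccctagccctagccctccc
Col4a1 (minus strand), chr8:11312827-11313076: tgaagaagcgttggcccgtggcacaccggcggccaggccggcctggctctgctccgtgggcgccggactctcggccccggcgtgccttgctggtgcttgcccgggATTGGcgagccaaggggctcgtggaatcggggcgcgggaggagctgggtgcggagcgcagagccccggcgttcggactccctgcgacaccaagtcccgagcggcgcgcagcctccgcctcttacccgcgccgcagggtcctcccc
Col4a2 (plus strand), chr8:11312555-11312804: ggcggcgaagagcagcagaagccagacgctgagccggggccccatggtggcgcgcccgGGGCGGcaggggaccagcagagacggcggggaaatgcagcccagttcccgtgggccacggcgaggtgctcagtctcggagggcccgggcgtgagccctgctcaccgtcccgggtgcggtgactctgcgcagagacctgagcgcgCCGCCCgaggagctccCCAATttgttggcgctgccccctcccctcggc
Col4a5 (plus strand), chrX:141475169-141475418: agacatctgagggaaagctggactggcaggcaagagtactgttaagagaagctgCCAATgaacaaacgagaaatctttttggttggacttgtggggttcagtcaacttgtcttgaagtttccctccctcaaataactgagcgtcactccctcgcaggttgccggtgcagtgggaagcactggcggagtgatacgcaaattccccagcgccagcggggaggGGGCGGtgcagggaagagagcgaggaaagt
Col4a6 (minus strand), chrX:141474077-141474326: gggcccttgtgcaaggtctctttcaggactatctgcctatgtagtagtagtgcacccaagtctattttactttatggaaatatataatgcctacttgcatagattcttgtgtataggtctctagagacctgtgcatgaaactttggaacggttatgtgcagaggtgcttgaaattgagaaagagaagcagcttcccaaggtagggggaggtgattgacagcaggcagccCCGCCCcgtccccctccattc
Col18a1, one annotated start (minus strand), chr10:77113706-77113955: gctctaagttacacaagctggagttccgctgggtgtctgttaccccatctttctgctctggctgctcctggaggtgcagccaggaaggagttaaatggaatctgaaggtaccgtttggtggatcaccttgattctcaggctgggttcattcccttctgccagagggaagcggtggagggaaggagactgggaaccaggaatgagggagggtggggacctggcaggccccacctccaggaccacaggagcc
Col18a1, the other annotated start (minus strand), chr10:77166531-77166780: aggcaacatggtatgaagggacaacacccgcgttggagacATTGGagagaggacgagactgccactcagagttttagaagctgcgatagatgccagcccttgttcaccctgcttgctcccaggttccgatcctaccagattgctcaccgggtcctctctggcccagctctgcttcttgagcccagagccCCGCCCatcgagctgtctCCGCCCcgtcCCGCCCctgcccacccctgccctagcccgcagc

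Col4a1 and Col4a2 run in opposite directions from starts on chromosome 8 that are 21 bases apart (11312826 and 11312805) and that overlap at their annotated 5′ ends. Col4a5 and Col4a6 lie the same way on chromosome X, with starts 1343 bases apart (141475419 and 141474076). The Col1a2 window holds a CCAAT 109 bases before the start and a GGGCGG at 205 and at 188 bases. The window of Col4a2 holds a CCAAT at 32 bases, and that of Col4a5 holds a GGGCGG at 30 bases before the start. Of the 2 Col18a1 windows, the one upstream of 77166530 has GGGCGG on the opposite strand at 61, 43 and 33 bases and the one upstream of 77113705 has none of the 3 motifs. Across the 35 collagen windows, TATAAA was in 4, CCAAT in 12 and GGGCGG in 21. Among 32851 windows of the same length, TATAAA was in 12.4%, CCAAT in 33.8% and GGGCGG in 32.7%. A match is a string of letters and not a site shown to be used.

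Fibrillar chains, which assemble into the banded fibrils of the stroma, fell in 10 of 11 cases, with a median log2 change of -5.05, or -4.26 with Col2a1 and Col24a1 at their bound. Col1a1 and Col1a2, the chains of type I collagen, were among the brightest members in DsRed-negative cells. Col1a1 had log2 signals of 10.52, 10.98 and 11.53 in DsRed-positive arrays 1, 2 and 5, against 16.91, 16.99 and 16.82 in the DsRed-negative arrays. The groups were far apart, and the log2 change was -5.89 with a standard error of 0.37 (± values with changes are standard errors throughout), which is 59.5-fold lower in DsRed-positive cells at an adjusted p = 1.11e-04. Its deposited signals were 1450, 1910 and 2975 for DsRed-positive cells, against 115693, 251243 and 172015 for DsRed-negative cells. Col1a2 was at 11.80, 11.94 and 12.71 in DsRed-positive arrays, against 17.05, 17.31 and 17.25, a change of -5.05 ± 0.37 (33.2-fold). Its signal in DsRed-positive cells was thus well above the control level in each array.

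Col3a1, the chain of type III collagen of distensible tissues, fell by a log2 change of -4.26 ± 0.40 on its brightest probe set and of -7.36 ± 0.30 on its other. On the brightest set it read the highest value of any probe set on DsRed-negative arrays 2 and 5. Col5a1 and Col5a2, the chains of type V collagen that start fibrils and limit their width, fell by -6.62 ± 0.49 and -6.84 ± 0.40. Col5a2, the fibrillar gene with the smallest p, was at 9.14, 10.13 and 10.30 in DsRed-positive arrays against 16.74, 16.66 and 16.67 in DsRed-negative arrays.

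The rarer fibrillar chains moved in the same direction at lower signals. Col11a1, a chain of type XI collagen, fell by -5.62 ± 0.41 and Col24a1 by at least 13.0-fold, since its DsRed-positive signals were at or below the control level. Col27a1 fell by -3.86 ± 0.68 (adjusted p = 0.00778), a call lost without both arrays numbered 5 (0.0786). Col2a1, best known from cartilage, was at least 3.36-fold lower. Col5a3 fell by -2.06 ± 0.45 (adjusted p = 0.0186), but its call was lost in 7 of 20 alternatives. Among these were the fits without DsRed-positive 2 (0.0666) or 5 (0.0736), without DsRed-negative 1 (0.0527) or 5 (0.0508) and without both arrays numbered 1 (0.121) or 5 (0.146). Col5a3 also lost its call with the mean of all probe sets (-0.78, adjusted p = 0.127). Its other probe set, below the filter, averaged 6.79 in DsRed-positive and 6.28 in DsRed-negative arrays. Col11a2 (-0.31, adjusted p = 0.621) did not pass and lay near the control level in both groups.

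**Figure D2:**
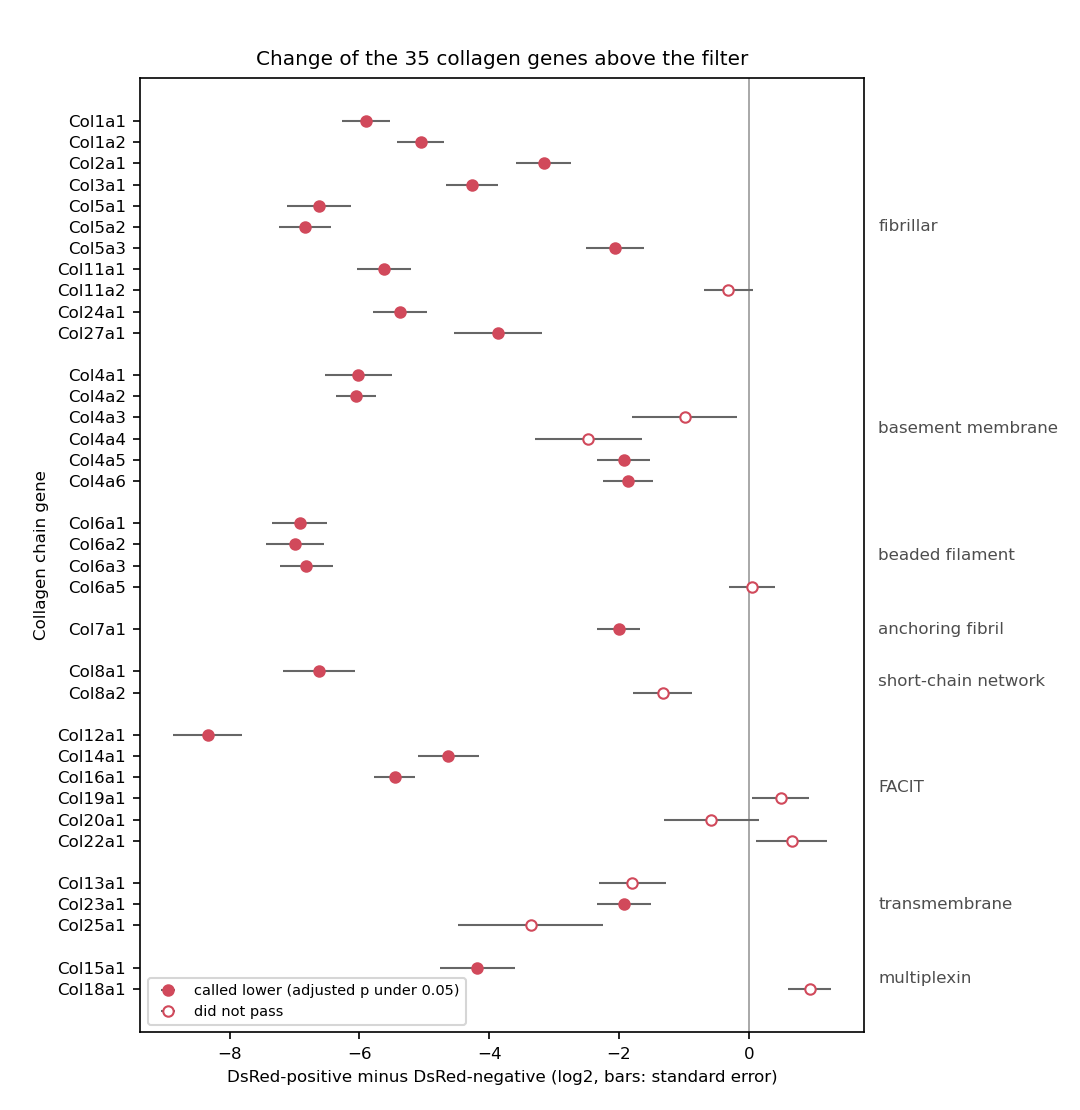
Log2 change, DsRed-positive minus DsRed-negative (horizontal axis, bars are standard errors of the limma fit over 6 arrays), of the 35 collagen genes above the filter (vertical axis, by class). Filled points passed the adjusted threshold, and points are fitted values also for the 6 genes given in the text as bounds. The 24 filled points all lie below 0, from -1.86 for Col4a6 to -8.34 for Col12a1, and the highest open point is Col18a1 at 0.94.

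Type IV collagen makes the network of basement membranes, and 4 of its 6 chains fell. Col4a1 and Col4a2, which form the network found in nearly all tissues, fell by -6.01 ± 0.52 and -6.05 ± 0.31 (64.6-fold and 66.2-fold). Col4a1 was at 10.55, 9.42 and 11.41 in DsRed-positive arrays, against 16.45, 16.41 and 16.56 in DsRed-negative arrays. Col4a2 was at 9.65, 9.62 and 9.64 in DsRed-positive arrays, against 15.61, 15.52 and 15.93. Both groups were tight for Col4a2, with an SD of 0.015 in DsRed-positive and 0.215 in DsRed-negative arrays. For Col4a1, DsRed-positive arrays spread by an SD of 1.00 on the brightest probe set and of 0.48 on the other, which changed by -5.31 ± 0.42. The spread of Col4a1 thus depends on the probe set, and the pair was compared on the brightest set alone. The difference between these paired chains within an array was 0.89, -0.21 and 1.78 for DsRed-positive cells, against 0.84, 0.89 and 0.64 for DsRed-negative cells, so the groups overlapped (exact permutation p = 0.8, 3 against 3).

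Col4a5 and Col4a6, another head-to-head pair, encode chains of a network found in a more restricted set of basement membranes. They had the smallest changes among the type IV genes called. Col4a5 was at 11.36, 11.71 and 10.79 in DsRed-positive arrays, against 13.75, 12.99 and 12.90 in DsRed-negative arrays. Col4a6 was at 11.74, 12.12 and 11.01 in DsRed-positive arrays, against 13.66, 13.50 and 13.28. Each DsRed-positive array lay below every DsRed-negative array for both genes. Col4a5 was lower by -1.93 ± 0.41 (3.80-fold, adjusted p = 0.0167) and Col4a6 by -1.86 ± 0.39 (3.63-fold, adjusted p = 0.0163). Both calls depended on the arrays used and on the scaling. Col4a5 lost it without DsRed-positive 1 (0.0644), without DsRed-positive 5 (0.0653), without both arrays numbered 1 (0.131) or 5 (0.0887) and with median centring of the arrays (0.0778). Col4a6 lost it in the same settings (0.0600, 0.0559, 0.134, 0.0871 and 0.0811). The other probe set of each gene did not pass, with -1.03 (adjusted p = 0.117) for Col4a5 and -0.60 (0.303) for Col4a6, though its groups did not overlap either. Both genes lie on the X chromosome, and array pair 1 differed from the rest in its sex-linked signals. Without that pair the changes were -1.70 for Col4a5 and -1.83 for Col4a6. An effect of sex was not tested.

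Col4a5 and Col4a1, from different head-to-head pairs, were also set against each other within each array. The log2 signal of Col4a5 minus that of Col4a1 was 0.81, 2.30 and -0.63 for DsRed-positive cells, against -2.70, -3.41 and -3.66 for DsRed-negative cells, a shift of 4.09. The groups did not overlap and the exact permutation test gave its smallest possible p, 0.1 (0.3 after adjustment over 9 chain pairs), so no pair could pass 0.05 in this design. Col4a3 and Col4a4, also a head-to-head pair, are the chains that join Col4a5 in kidney basement membranes. Both were at or below the control level in each DsRed-positive array. Col4a3 was at 6.74, 6.81 and 7.27 in DsRed-positive arrays, against 8.84, 5.90 and 9.04 in DsRed-negative arrays, and overlapped. Col4a4 was at 6.08, 6.97 and 6.54, against 8.31, 11.02 and 7.68, with DsRed-negative 2 far above the other arrays on this probe set. Its other tested probe set read 9.96, 10.37 and 6.09 in DsRed-negative arrays 1, 2 and 5 and did not pass (adjusted p = 0.0828). Neither gene passed on its brightest probe set, with bounds of at least 1.35-fold lower for Col4a3 (adjusted p = 0.447) and at least 2.85-fold lower for Col4a4 (0.0821). Without DsRed-negative 2, Col4a3 was called lower (adjusted p = 0.0123), and without DsRed-negative 5, Col4a4 was (0.0461).

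**Figure D3:**
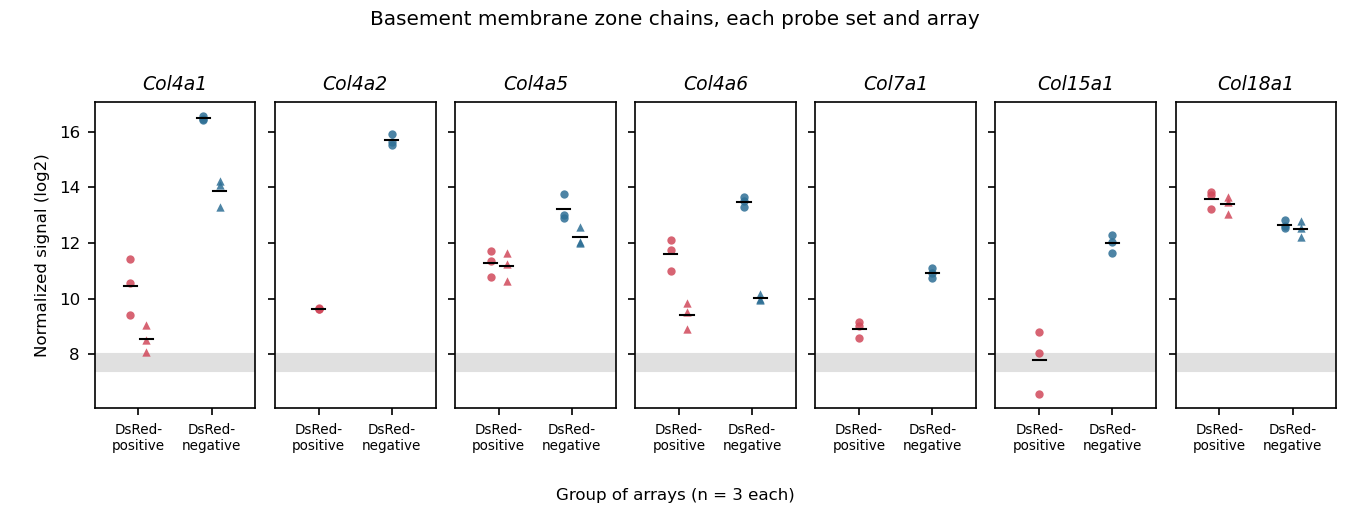
Normalized log2 signal (vertical axis) of each probe set of 7 genes of the basement membrane zone in DsRed-positive (left) and DsRed-negative arrays (right). Points are single arrays, circles the brightest probe set and triangles the other one, bars are means and the band is the range of the control level. Col4a1 and Col4a2 are separated by about 6 log2 units, Col4a5, Col4a6 and Col7a1 by 1.86 to 2.01 on the brightest probe set, and Col18a1 is higher in DsRed-positive arrays.

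Col7a1 encodes the anchoring fibrils that fasten basal epithelium to stroma in skin. It was at 8.58, 9.15 and 9.02 in DsRed-positive arrays, against 11.08, 10.76 and 10.93 in DsRed-negative arrays, and the groups did not overlap. The change was -2.01 ± 0.33 (4.02-fold, adjusted p = 0.00580). It was lost without both arrays numbered 1 (0.0787) and without both numbered 5 (0.0595). Its size was near those of Col4a5 and Col4a6.

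Col15a1 and Col18a1, the multiplexins, are close relatives that lie at basement membranes, and Col18a1 is the source of the fragment endostatin. Their differences had opposite signs. Col15a1 was at 6.57, 8.06 and 8.80 in DsRed-positive arrays, against 11.64, 12.03 and 12.30 in DsRed-negative arrays, and fell by -4.18 ± 0.58 (18.1-fold, adjusted p = 0.00265). Col18a1 was at 13.24, 13.83 and 13.72 in DsRed-positive arrays, against 12.55, 12.59 and 12.83 in DsRed-negative arrays. Every DsRed-positive array was above every DsRed-negative array for Col18a1 on both of its probe sets. The values were 0.94 ± 0.33 (1.92-fold) and 0.87 ± 0.35, with adjusted p = 0.0970 and 0.131, so neither passed. Col18a1 was called higher when arrays were centred on their medians (1.61, adjusted p = 0.0141), with an offset at the 50th percentile (0.0411) and with trend and robust estimation (0.0330). It was the sole member called higher in any of the 20 alternatives. The log2 signal of Col18a1 minus that of Col15a1 was 6.67, 5.76 and 4.92 for DsRed-positive cells, against 0.90, 0.56 and 0.53 for DsRed-negative cells, a shift of 5.12 with the smallest exact p of 0.1. In DsRed-positive 1, which gave the largest difference, Col15a1 was below the control level of 7.51, which limits its fold and this shift. The deposited signals of Col18a1 were 10211, 15331 and 13648 for DsRed-positive cells, against 5782, 5786 and 6872 for DsRed-negative cells.

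Beaded filament chains form the type VI microfilaments around cells. Col6a1, Col6a2 and Col6a3, the main chains, fell by -6.92 ± 0.43, -6.99 ± 0.45 and -6.82 ± 0.41 (121-fold, 127-fold and 113-fold). Col6a1 was at 8.65, 10.06 and 9.64 in DsRed-positive arrays, against 16.36, 16.30 and 16.44 in DsRed-negative arrays. Col6a2 was at 8.85, 9.69 and 10.45, against 16.56, 16.70 and 16.70, and Col6a3 at 9.22, 9.53 and 10.47, against 16.66, 16.40 and 16.62. On these probe sets the fitted changes lay within 1 SE of one another, but the other probe set of Col6a2 gave a smaller change, -4.97 ± 0.46 (31.4-fold). The within-array difference of Col6a1 and Col6a2 overlapped between groups (exact permutation p = 0.7). Col6a5, a chain that can take the place of Col6a3, lay near the control level in both groups (0.06, adjusted p = 0.935), and Col6a4 was below the filter.

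**Figure D4:**
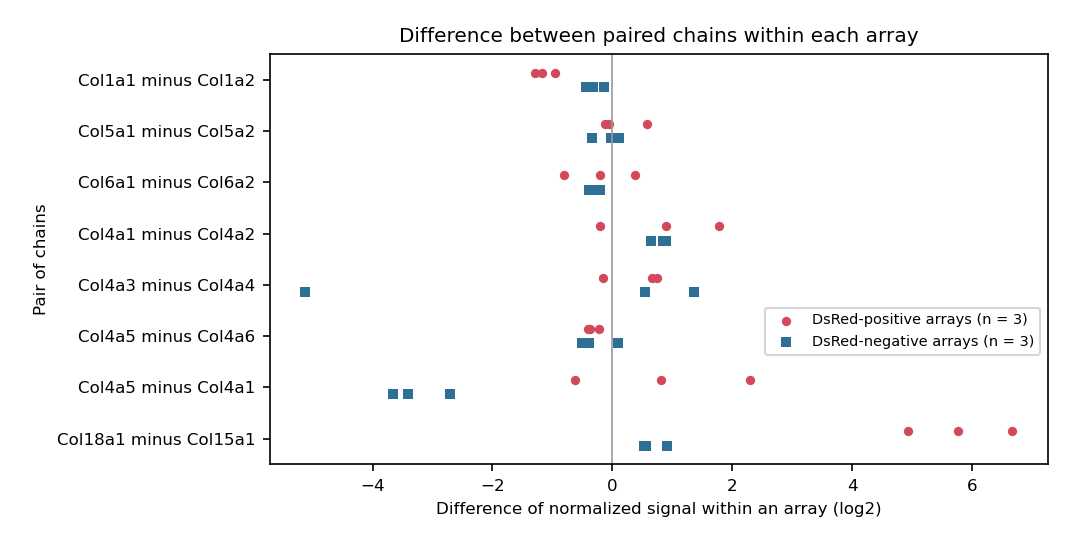
Difference in normalized log2 signal between 2 chains of a pair within each array (horizontal axis), for 8 pairs (vertical axis), in 3 DsRed-positive and 3 DsRed-negative arrays. The groups do not overlap for Col1a1 minus Col1a2, Col4a5 minus Col4a1 and Col18a1 minus Col15a1, and overlap for the other 5.

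For type I collagen, Col1a1 minus Col1a2 was lower in DsRed-positive arrays (-1.29, -0.96 and -1.17) than in DsRed-negative arrays (-0.14, -0.33 and -0.43), a shift of -0.84 at the smallest exact p of 0.1. On another probe set Col1a2 had a larger change, -6.41 ± 0.31, and on its dimmest a smaller one, -1.96 ± 0.51 (3.90-fold, adjusted p = 0.0359). The shift thus depends on the probe set read. Col5a1 minus Col5a2 (0.22), Col4a5 minus Col4a6 (-0.07), Col4a3 minus Col4a4 and Col9a1 minus Col9a2 overlapped between groups, with exact p from 0.6 to 0.9. The chains of the last 2 pairs are dim, so their differences are not given.

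Short-chain collagens form open networks in vessel walls and the cornea. Col8a1 was at 8.87, 7.65 and 9.81 in DsRed-positive arrays, against 15.19, 15.28 and 15.72 in DsRed-negative arrays, and fell by -6.62 ± 0.56 (98.3-fold). Its other probe sets fell less, one by -3.48 ± 0.78 (11.1-fold) and the other by at least 5.85-fold. Its partner Col8a2 did not overlap between groups (7.08, 7.67 and 7.51, against 9.54, 8.05 and 8.64) but did not pass (-1.32, adjusted p = 0.0879). It passed on the deposited scale without normalization (-1.80, adjusted p = 0.0203), with the mean of all probe sets (0.0477) and without DsRed-negative 2 (0.0413). Col10a1, a chain of growth plate cartilage, was below the filter.

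Fibril-associated collagens coat fibrils and link them to their surroundings. Those of types XII, XIV and XVI fell. Col12a1 was at 8.06, 6.69 and 8.71 in DsRed-positive arrays, against 16.28, 15.99 and 16.20 in DsRed-negative arrays, so that 1 DsRed-positive array was below its control level. Its log2 change, -8.34 ± 0.53, ranked 5 from the lowest among 14222 tested genes, and the other probe set that was tested gave -4.84 ± 0.32. Col14a1 was at 9.46, 9.67 and 10.78, against 14.12, 14.59 and 15.09, and fell by -4.63 ± 0.47. Col16a1 was at 8.50, 8.85 and 8.68, against 14.10, 13.94 and 14.35, and fell by -5.45 ± 0.32. None of these overlapped between the groups. Col19a1 (0.49), Col20a1 (-0.58) and Col22a1 (0.66) did not pass and overlapped. Col9a1, Col9a2 and Col9a3, the chains of cartilage type IX collagen, were below the filter, as was Col26a1.

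Transmembrane collagens sit in the cell surface, and 1 of the 3 passed. Col23a1 was at 7.50, 7.98 and 7.69 in DsRed-positive arrays, against 9.32, 10.38 and 9.22 in DsRed-negative arrays, and fell by -1.92 ± 0.42 (adjusted p = 0.0184). The call was lost without DsRed-positive 1 (0.0820), without DsRed-positive 5 (0.0659) and without both arrays of any 1 number (0.0583 to 0.122). Its dimmer tested probe set changed by -3.39 ± 0.55. Col13a1, a chain of the neuromuscular junction, was at 7.21, 7.19 and 6.06, against 8.62, 7.86 and 9.35, at least 2.17-fold lower in DsRed-positive cells, and did not pass (adjusted p = 0.0509). It was called lower in 5 of the 19 alternatives that tested it. Col25a1, which acts in motor innervation, was at 7.49, 6.71 and 5.56, against 12.14, 7.43 and 10.26, so DsRed-negative 2 overlapped with DsRed-positive 1. With no DsRed-positive array above the control level, it was at least 5.46-fold lower and did not pass (adjusted p = 0.0814). It was called lower without DsRed-negative 2 (adjusted p = 0.00796).

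The spread of the quantile-normalized values between arrays differed by group. Over the 24 collagen genes that fell, which are dimmer in DsRed-positive cells, the median SD was 0.59 in DsRed-positive and 0.20 in DsRed-negative arrays. It was larger in DsRed-positive for 17. Over the 11 urothelial markers, which are brighter in DsRed-positive cells, the median SD was 0.21 in DsRed-positive and 0.59 in DsRed-negative arrays. Quantile normalization gives each rank the same value on every array, so these SDs are not those of the deposited signals. Col3a1 had an SD of 0.067 in DsRed-negative arrays, where its deposited signals were 159161, 500654 and 336286. Krt18 had one of 0.006 in DsRed-positive arrays, with deposited signals of 59861, 122000 and 119761. Among the DsRed-positive arrays the highest signal was in array 5 for 12 of the 24 collagen genes, in array 2 for 8 and in array 1 for 4. Summed over the brightest probe sets of the 41 genes, collagen signal as deposited came to 38212, 45215 and 58830 on DsRed-positive arrays 1, 2 and 5, against 1223688, 2302082 and 2023491 on DsRed-negative arrays. Where 2 or more probe sets of a gene were tested, they gave 1 call for 18 of 20 genes, the exceptions being Col4a5 and Col4a6. Of 58 tested probe sets of collagen genes, 40 were lower and 0 were higher. Of all 30175 tested probe sets, 2600 were lower and 2605 were higher.

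Genes that make and process collagen were lower with it. Of 17 tested genes of chain hydroxylation and folding, 11 fell, none rose and 6 did not pass. Serpinh1, the collagen chaperone HSP47, fell by -5.91 ± 0.38, Crtap, a partner of prolyl 3-hydroxylation, by -4.96 ± 0.40, the lysyl hydroxylase Plod1 by at least 12.1-fold and Fkbp14, a folding enzyme, by -2.97 ± 0.30. P4hb, which also acts in general disulfide folding (-0.23, adjusted p = 0.663), did not pass. All 7 tested genes of propeptide removal and cross-linking fell, among them the enhancer Pcolce (-6.31 ± 0.41), the oxidases Lox (-8.12 ± 0.35), Loxl1 (-6.17 ± 0.55) and Loxl3 (-3.22 ± 0.37).

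Among genes of collagen breakdown, 7 of 8 tested fell and Mmp9 did not pass. Ctsk, a collagen-cleaving cathepsin, fell by -7.72 ± 0.46, the gelatinase Mmp2 by -7.83 ± 0.47, and the inhibitors Timp3 and Timp1 by -5.68 ± 0.37 and -4.83 ± 0.51. Of 14 fibril-binding genes, 12 fell, including Ogn (-7.95 ± 0.39), Dcn (-6.67 ± 0.34), Sparc (-6.79 ± 0.35) and Prelp (-6.42 ± 0.34), while Thbs1 (0.57) and Comp (-0.32) did not pass.

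Receptors for collagen were divided. Of 9 tested, 3 fell and none rose. Ddr2, the receptor tyrosine kinase of mesenchymal cells for fibrillar collagen, fell by -7.00 ± 0.39, Mrc2, which takes up collagen, by at least 47.8-fold, and the integrin chain Itga1 by -4.57 ± 0.83, a call lost without both arrays numbered 2 (0.0653) or 5 (0.0782). Ddr1, the related receptor of epithelium, had a value of 0.92 (adjusted p = 0.180) and Itga2, the epithelial collagen-binding integrin chain, of 0.28 (0.665), and neither passed. Lair1, an inhibitory receptor of leukocytes, was at least 1.24-fold lower and did not pass either (0.17).

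The partners of collagen in basement membranes went both ways. Of 14 genes tested, 8 fell, 2 rose and 4 did not pass. The peroxidase Pxdn, which cross-links type IV collagen, fell by -5.31 ± 0.43, the linker Nid1 by -4.90 ± 0.48, and the laminin chains Lama2 and Lama4 by -6.96 ± 0.74 and -7.59 ± 1.01, the last with a call lost without both arrays numbered 1 (0.0534). Lamb3 and Lama3, chains of the epithelial laminin of hemidesmosomes, rose by 3.67 ± 0.57 and 2.61 ± 0.53 (adjusted p = 0.00456 and 0.0137). The Lama3 call was lost without DsRed-positive 1 (0.0667), without DsRed-positive 2 (0.0563) and without both arrays numbered 1 (0.0950) or 2 (0.0893).

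**Figure D5:**
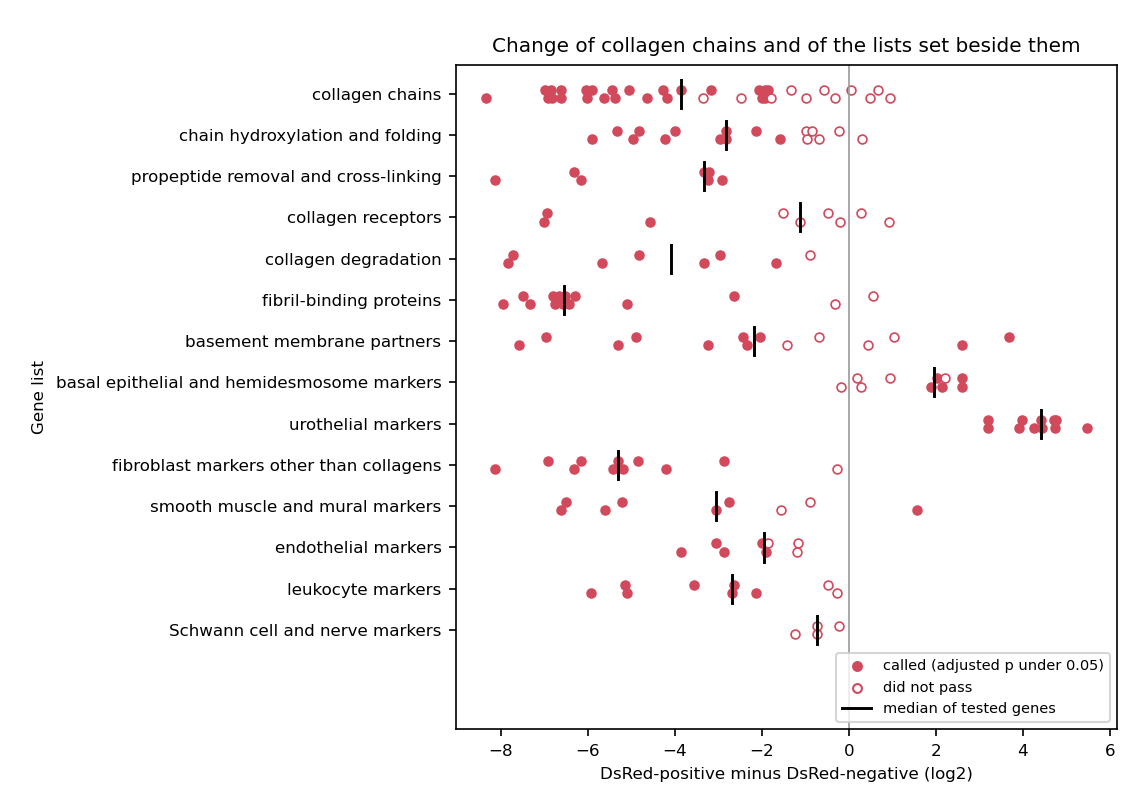
Log2 change, DsRed-positive minus DsRed-negative (horizontal axis), of the tested collagen genes and of the tested members of 13 other lists (vertical axis). Filled points passed the adjusted threshold, open points did not, and bars are medians. Collagen, its processing genes and fibroblast markers lie mostly left of 0, and the 11 urothelial markers lie right of 3.

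Markers of cell types were read beside these values. All 11 urothelial markers rose, with a median of 4.42 (4.27 with Psca at its bound), among them Upk1a (4.44 ± 0.34), Krt18 (3.98 ± 0.31), Psca (at least 13.2-fold) and Cdh1 (4.73 ± 0.41). Of 10 basal and hemidesmosome markers 5 rose and 5 did not pass. Krt5 (2.61 ± 0.43) and Krt15 (2.60 ± 0.53) had the smallest p, and Itga6 (1.88) and Krt14 (2.03) rose too, but the last 3 lost their call without DsRed-positive 1 or 2 (adjusted p from 0.0569 to 0.11). Itga6 also lost it without DsRed-negative 2 (0.0568) or 5 (0.0677), and Krt14 without any 1 DsRed-negative array (0.056 to 0.0707), with the array number as a block (0.069) and without probe sets of the suffixes _s_at and _x_at (0.0637). Summed as deposited, the basal list read 116424, 116093 and 87852 on DsRed-positive arrays 1, 2 and 5, against 55179, 38825 and 29413 on DsRed-negative arrays.

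Of 11 fibroblast markers other than collagen, 10 fell and S100a4 did not pass, with a median of -5.31. Vim fell by -6.31 ± 0.44, Dpt by -5.42 ± 0.43 and Mfap5 by -4.85 ± 0.40, and Lox is given above. Their summed signal came to 2719, 2412 and 4658 on DsRed-positive arrays, against 264923, 341218 and 366111 on DsRed-negative arrays. Vim alone gave 1312, 1039 and 3044 of the former and 145419, 205700 and 214785 of the latter. Array 5 was the highest DsRed-positive array here as for 12 of the collagen genes, and most of its sum was Vim. Thy1 was at or below the control level in each DsRed-positive array, and 10 of the 11 markers were above it in at least 1.

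Of 9 tested smooth muscle and mural markers, 6 fell, 1 rose and 2 did not pass. Acta2 fell by -5.61 ± 0.32, Pdgfrb by -6.63 ± 0.43, Tagln by -5.21 ± 0.46 and Actg2 by -6.49 ± 0.62. Rgs5 rose by 1.56 (adjusted p = 0.0439), a call lost without any 1 array (0.0583 to 0.157), with the values as deposited (0.0625), with an offset of 1 (0.0646) and with no filter (0.0604). Of 8 tested endothelial markers, 5 fell, with Cldn5 at -3.06, Tek at -3.85, Cdh5 at -2.87 and Esam at -2.0. The call of Esam was lost without both arrays numbered 1 (0.0914) or 5 (0.0781). Of 9 tested leukocyte markers, 7 fell, with Laptm5 at -5.94 (0.07 and not passed on another probe set), H2-Aa at -5.15, Ptprc at -5.09 and Cd52 at -3.55. No Schwann cell or nerve marker of the 4 tested passed (Prph -1.23, Elavl4 -0.73, S100b -0.74, Sox10 -0.22), though Prph did without DsRed-negative 5 (0.0303). The summed signal of the 10 smooth muscle and mural markers ranged over 44200 to 54168 in DsRed-positive and over 135297 to 227038 in DsRed-negative arrays. Rgs5 made up most of the DsRed-positive sums, and without it the other 9 came to 2727 to 3519 in DsRed-positive and 111737 to 202906 in DsRed-negative arrays. Endothelial markers summed to 2282 to 3196 in DsRed-positive and 14123 to 18529 in DsRed-negative arrays, and leukocyte markers to 2246 to 4261 in DsRed-positive and 34021 to 46343 in DsRed-negative arrays. Their part in the collagen values was not tested.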

How the data were processed

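RNA of 6 samples was measured on Affymetrix Mouse Genome 430 2.0 arrays after 2 rounds of amplification, per the labels. The values deposited by the authors were read as linear probe set intensity. Software named per the submitters' processing notes is GCOS. Version and settings of GCOS were not given in the sources used here. Deposited intensity had a mean of 1500.01 on each array after trimming 2% at both ends, so arrays had been scaled before deposition. The median before normalization spanned 0.74 on the log2 scale.

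To each value 39.84 was added, which is the 20th percentile over the table, then log2 was taken and arrays were quantile normalized. Of 45101 probe sets, 64 controls were removed, and the 30175 whose mean log2 exceeded 7.18, the 33rd percentile, entered the test. Symbols came from the platform annotation, updated through gene IDs: 34945 probe sets had 1 symbol (34741 matched by ID), 932 had several and 9160 had none. A gene was its single-symbol probe set with the highest mean over 6 arrays. Tests used R 4.3.3 and limma 3.58.1 (two-sided, Benjamini-Hochberg over all tested probe sets, threshold 0.05), checked on simulated data. For chain pairs, group means of the within-array difference entered a two-sided exact permutation test, adjusted over 9 pairs. Where 1 group lay at or below the control level on all its arrays, its values were raised to that level and the fold given as at least N-fold.

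The members and lists were chosen with earlier results of these data known. Genes with values in every array are the 3 with the smallest p in each class, all tested basement membrane, anchoring and multiplexin members, and genes whose probe sets differ in call. Every member is named. Of other lists, the 4 with the smallest p and those called against the list's median are named. P4hb, Mmp9, Thbs1, Comp, S100a4, Thy1, Ddr1, Itga2 were picked after their values were seen. Col6a6, Col21a1 and Col28a1 were not analysed here. Alternatives changed the scaling, offset, filter, estimation, probe set choice, replicate block and arrays used. No slide or scan date was used here.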

Additional observations from a re-analysis of the deposited data

How the results depend on the processing

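The count of collagen genes lower in DsRed-positive cells (24) stayed within 1.5 times of its value in the 20 alternatives, from 18 without both arrays numbered 5 to 28 with the values as deposited or without DsRed-negative 2. Of the 24 calls, 18 were kept in every alternative that tested them, 6 were lost in at least 1 (Col4a5, Col4a6, Col5a3, Col7a1, Col23a1 and Col27a1) and none changed sign. The count of collagen genes called higher was 0, and 1 (Col18a1) with each array centred on its median, with the offset at the 50th percentile and with trend and robust estimation. Without 1 array the lower collagen genes numbered 20 to 28 and the higher ones 0.

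Counts over all genes depended more on the setting. Centring on the median gave 2568 higher genes in place of 1310. Without 1 array the higher genes numbered 623 to 1263 and the lower ones 1071 to 1485. Without both arrays numbered 1, 2 and 5 in turn there were 485, 681 and 523 higher genes, and without those numbered 1 or 5 there were 758 and 903 lower genes in place of 1603. These fits hold fewer arrays. The median change over all genes was 0.04, and -0.17 with the values as deposited and 0.37 with median centring, where the median of the tested collagen genes was -3.86 (-3.7 with bounded genes at their bound), -4.0 and -3.46.

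With the number as a replicate block, 24 collagen genes were lower and 0 higher, and over all genes 1067 were higher and 1406 lower. Of the other genes named, Krt14 lost its call under the block (0.069). Deviations of same-numbered arrays from their group means correlated at 0.145, 0.037 and 0.053, so the numbers were not taken as pairing the arrays. Every array correlated best with the array of its own number, a hint from the data and not from the design. Both arrays numbered 1 also shared high Xist and low Eif2s3y signals, unlike those numbered 2 and 5. Whether arrays of 1 number share an animal is not stated in the labels. The sign of Col6a5 turned with the values as deposited (-0.50), without DsRed-positive 2 (-0.13), without DsRed-negative 5 (-0.08) and without both arrays numbered 2 (-0.042), and without 1 array ranged to 0.264. Col20a1 (0.028) and Laptm5 (0.069) turned when probe sets with the suffixes _s_at and _x_at were left out, where another probe set is read. Among nerve markers that did not pass, the values without 1 array ran from -1.28 to 0.025 for Elavl4, -1.216 to 0.016 for S100b and -0.446 to 0.034 for Sox10. Elavl4 was at 0.071 without both arrays numbered 5 and Sox10 at 0.099 without both numbered 2. Col4a1 minus Col4a2 (0.04) turned with the values as deposited (-0.073), with median centring (-0.073) and with the offset at the 50th percentile (-0.068). The cause of these turns was not tested. Without the filter, 41 collagen genes were tested, and with the filter at the 50th percentile 27. Signals near the control level limit the folds of Col2a1, Col24a1, Col4a3, Col4a4, Col13a1 and Col25a1. They also limit those of Col5a3, Col11a1, Col12a1, Col15a1, Col23a1 and Col27a1, where at least 1 DsRed-positive array was at or below that level. No slide or scan date block was run.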
